A study of Mus musculus with 8 samples.

Results

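Mitochondrial ribosomal proteins are the nuclear-encoded proteins of the mitoribosome, and their genes were described here in 4 pools of mouse embryonic fibroblasts (MEFs). The genes were chosen by name: autosomal protein-coding genes whose symbol begins Mrpl or Mrps followed by a digit and that had 10 or more allelic reads in at least 1 pool. Of 78 annotated genes with such a symbol, 70 met the read minimum, 44 of 49 large-subunit (Mrpl) and 26 of 29 small-subunit (Mrps) genes, out of 10985 autosomal protein-coding genes that met it. The 8 genes left out were Mrpl2, Mrpl21, Mrpl22, Mrpl23, Mrpl53, Mrps7, Mrps21 and Mrps36, and of these Mrpl53 and Mrps7 had no read in any pool. The 70 genes lay on 17 autosomes, and 60 of them had 10 or more reads in all 4 pools.

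The mitoribosome translates the few messages of the mitochondrial genome, which encode subunits of the oxidative phosphorylation complexes. Its ribosomal RNAs, mt-Rnr1 in the small and mt-Rnr2 in the large subunit, are transcribed inside the organelle, while all of its proteins are made in the cytosol and imported, so the subunits are assembled from products of both genomes. The large subunit holds the peptidyl transferase centre and the small subunit reads the codons. Promoters of many mitochondrial genes of the nucleus carry sites for the activators NRF1 and GABPA, an ETS-family factor, and some carry sites for YY1, the zinc-finger factor that was depleted in this study.

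RNA-seq reads were counted per gene and per allele, where a strain difference told the alleles apart. All pools came from clonal female MEF lines labelled 129S1/SvImJ x CAST/EiJ, in which the inactive X (Xi) is the 129 one (the methods of the study give its strain as 129Sv4/Jae, and 129S1/SvImJ as the source of the strain differences): WT cells, XiΔXist cells lacking Xist on the Xi, and XiΔXist cells transduced with a lentiviral scrambled hairpin (shSCR) or with hairpins against YY1 (shYY1). Xist is the long noncoding RNA of X inactivation, and the comparisons ask what its loss, and then depletion of YY1, did to expression. Every hairpin-treated cell therefore also lacked Xist and had been through lentiviral transduction and puromycin selection, and as each genotype is a clonal line, genotype and clone cannot be told apart.

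The 2 samples of each group were pooled before the counts were made, so each group is a single value, no difference below has a replicate check, and no test across replicates was possible. The 95% intervals given are for counting error only, and reads from PCR are not independent molecules. Autosomal allelic reads numbered 18745483 in WT and 21342574 in XiΔXist, against 1470870 in shSCR and 1472083 in shYY1, so 3 reads were worth 0.160, 0.141, 2.04 and 2.04 CPM (counts per 1000000 autosomal reads). Over the 66, 66, 64 and 64 members with 10 or more reads in the pool, the median was 367.5, 418, 53 and 50 reads. Levels are CPM over both alleles and may be compared between pools for a gene, but not between genes, because a gene's allelic reads depend on its length and on how many strain differences its exons hold. In bulk RNA, fewer cells that express a gene and less RNA per cell cannot be told apart. The targeted genes went with the labels: Xist stood at 1889 CPM in WT and 0.984 in XiΔXist, with no read in shSCR and 6 reads in shYY1, and Yy1 was at 82.0 CPM (WT), 79.5 (XiΔXist), 161.1 (shSCR) and 62.5 (shYY1), a level 61.2% lower in shYY1 than in shSCR. Of 12 fibroblast markers, 11 had 10 or more reads in WT and in XiΔXist and 10 in each hairpin pool, where Lum was at 0 and, in shSCR, Dcn as well. Markers of epithelium, endothelium, blood, muscle, nerve and pluripotent cells each summed to at most 13.8 CPM against 5160 to 16414 CPM for the fibroblast list.

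YY1 letters, meaning the exact run AAGATGGC on either strand, were searched in RefSeq promoter windows (GRCm38.p6, from 250 bases before to 50 after the transcript start), which were given for 61 of the 70 members. They occurred in 11 of the 61 (18.03%), against 3.65% of 15504 protein-coding genes. The ETS letters CCGGAAG occurred in 22 members (36.1%) against 13.7%, and the NRF1 letters CGCATGCG in 6 (9.84%) against 2.94%. These backgrounds are not matched for expression: only 10985 autosomal protein-coding genes met the read minimum that the members had to meet. For 10 of the 11, the runs that hold the YY1 letters are shown because YY1 was the factor depleted. Each is printed 5′ to 3′ on the strand on which the letters read AAGATGGC, with those letters in capitals and up to 11 bases on each side.
Mrpl35, chr6:71823743-71823772, minus strand: aggcaggctgcAAGATGGCggcttccatct
Mrpl37, chr4:107066822-107066851, minus strand: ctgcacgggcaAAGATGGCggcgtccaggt
Mrpl42, chr10:95501904-95501933, minus strand: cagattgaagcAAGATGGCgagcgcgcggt
Mrpl49, chr19:6057721-6057750, minus strand: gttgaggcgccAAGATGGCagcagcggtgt
Mrps18a, chr17:46111004-46111033, plus strand: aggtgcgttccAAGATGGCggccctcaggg
Mrps24, chr11:5707652-5707676, minus strand: cgcgccggcccAAGATGGCgtggtc
Mrps27, chr13:99344789-99344818, plus strand: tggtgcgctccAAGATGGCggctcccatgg
Mrpl32, chr13:14613261-14613287, plus strand: ctttccgggtaAAGATGGCagagcgcg
Mrpl36, chr13:73330968-73330997, minus strand: cgccaggaagaAAGATGGCgtaaggtcacg
Mrps11, chr7:78783013-78783042, minus strand: gggaagacagaAAGATGGCggcgcccgtag

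In 7 of the 10, Mrpl35 to Mrps27 in the order above, the letters lay on the strand of the gene and began 12 to 37 bases into the transcript, counting the start as 1. In 5 of these 7 (Mrpl35, Mrpl49, Mrps18a, Mrps24 and Mrps27) the ATG inside the letters was the annotated start codon of the gene itself. In the other 3 the letters lay upstream, between positions -242 and -30, and on the opposite strand. For 2 of those 3 the ATG was the annotated start codon of a gene that runs the other way: Psma2, a proteasome subunit, beside Mrpl32, and Mrpl46 beside Mrps11. The pair Mrps11 and Mrpl46, from different subunits, thus share this stretch head to head. A match of letters is a description and not evidence of a bound site.

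The summed level of the 70 genes was nearly the same in WT and XiΔXist, at 2580 CPM (2557 to 2603) and 2565 CPM (2543 to 2586), and was 2784 (2699 to 2871) in shSCR and 2900 (2814 to 2988) in shYY1. The large subunit held 1868, 1858, 1789 and 1862 CPM of this, and the small subunit 712, 706, 995 and 1038. The small-subunit sum was higher in both hairpin pools, and of it Mrps6 alone gave 94.4 CPM (WT), 131.5 (XiΔXist), 229.8 (shSCR) and 233.7 (shYY1). That order depends on the scaling by autosomal reads: the small-subunit sum in shSCR was 1.41 times that in XiΔXist, but 0.48 times with TMM factors. Cytosolic ribosomal protein genes summed to 4071, 4143, 9933 and 9779 CPM, and nuclear subunits of oxidative phosphorylation to 3860, 4573, 3828 and 4034 CPM. With TMM factors the cytosolic sum too was lower in shSCR than in XiΔXist, at 0.82 times.

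Between XiΔXist and WT the mitoribosomal genes differed little. A gene was called when its level differed by 1.5-fold or more, on log2 of CPM plus 1, and the exact conditional interval of the ratio left out 1, among genes with 50 or more reads over both pools. Of 62 members tested, 1 was higher (Mrpl30) and 2 were lower (Mrps31 and Mrpl11), while among all 8567 autosomal protein-coding genes tested 7.73% were higher and 12.6% lower. The members' shares, 1.61% and 3.23%, lay below that background in both directions. With median-of-ratios size factors the counts were 3 higher and 1 lower, and the background 10.5% and 9.68%. The log2 changes of the members spread with an SD of 0.30 over genes, from -0.87 to 0.79, against an SD of 0.80 over all genes tested. Read depth was alike, with a median of 883.5 reads over both pools for the members tested and 979 for all genes.

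Mrps31, a small-subunit protein with no counterpart in bacterial ribosomes, stood at 11.3 CPM in WT and 5.72 in XiΔXist, a ratio of 0.51 (0.40 to 0.63). Mrpl11, the protein at the base of the stalk that recruits translation factors, stood at 11.6 and 7.26 CPM, a ratio of 0.62 (0.50 to 0.77). Its log2 change of -0.61 lay close to the 1.5-fold limit, and the call was lost with TMM (-0.52) and median-of-ratios factors (-0.49), against the median of its chromosome (-0.42) or of genes of like GC content (-0.54), and with a pseudocount of 5 (-0.44). Mrpl30 rested on few reads, 23 in WT and 61 in XiΔXist, with 1.23 and 2.86 CPM and a ratio of 2.33 (1.42 to 3.94). The other stalk proteins were not called: Mrpl10 was at 23.3 and 18.6 CPM and Mrpl12 at 4.64 and 4.26. All 3 called genes were read only from the 129 allele in both pools, so the changes were changes of 129 reads.

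The median log2 change was -0.13 for the 62 members, -0.15 for 39 large-subunit and -0.04 for 23 small-subunit genes, beside -0.08 for all genes. The sign of the small-subunit median depended on the scaling, being 0.055 with TMM factors. Cytosolic ribosomal protein genes had 1 higher and 1 lower of 63 and a median of -0.09, and oxidative phosphorylation subunits 2 higher and 3 lower of 56 and a median of -0.06. Of 63 tested genes that serve the mitoribosome without carrying the name, 1 was higher and 4 were lower, all among the 21 tested factors of assembly and rRNA modification. Gtpbp10, a GTPase of large-subunit maturation, rose from 44.4 to 112.4 CPM, and Ddx28, a helicase of large-subunit assembly, fell from 6.83 to 1.83 CPM. Mrm2, an rRNA methyltransferase, fell from 2.24 to 0.937 CPM on 42 and 20 reads. None of the 14 translation factors, 16 genes of aminoacyl-tRNA supply, 7 regulators and 5 mitoribosome subunits of other names (Dap3, Ptcd3, Chchd1, Aurkaip1 and Gadd45gip1) that were tested passed the rule. The 2 mitochondrial rRNAs were at 10091 and 10670 CPM (mt-Rnr1) and at 169231 and 200501 CPM (mt-Rnr2) in WT and XiΔXist.

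**Figure D1:**
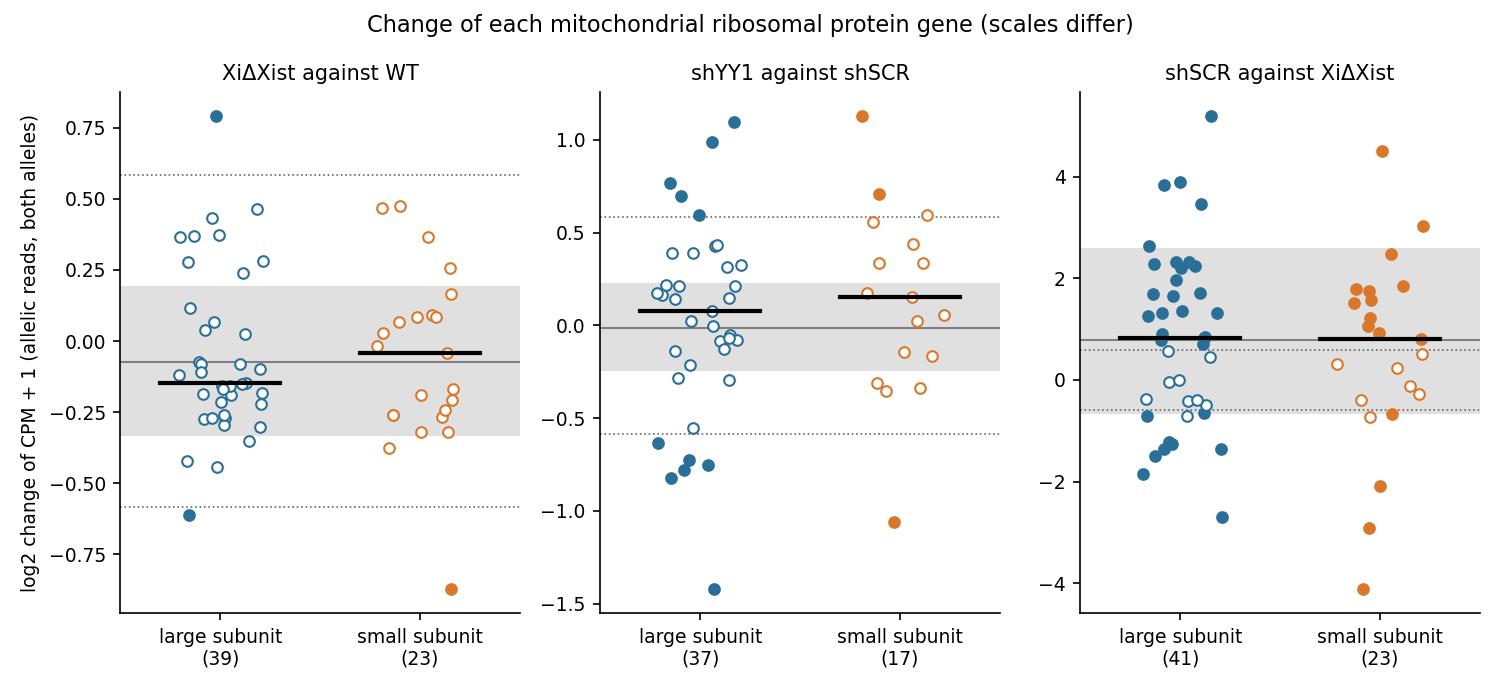
Log2 change of CPM plus 1 for each member with 50 or more reads, by subunit, in the 3 comparisons (the vertical scales differ). Filled points were called, open ones were not, black bars are medians of the members, the grey line and band are the median and interquartile range of all autosomal protein-coding genes tested, and dotted lines mark 1.5-fold. In XiΔXist against WT only 3 of 62 points are filled, whereas in shYY1 against shSCR 14 of 54 are, 7 in each direction.

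Depletion of YY1 went with calls in both directions among the mitoribosomal genes. Of 54 members tested in shYY1 against shSCR, 7 were higher and 7 lower, 13.0% each, where 5.77% of the 7451 protein-coding genes tested were higher and 5.85% lower. The members had fewer reads than genes in general, a median of 118 over both pools against 192, and the share called depended on reads: among all genes with 50 or more but fewer than 200 reads it was 8.88% higher and 8.91% lower. All 14 calls fell among the 46 members in that range, and none among the 8 members with 200 or more. With scaling by all allelic reads 4 members were higher and 7 lower, beside 4.25% and 7.502% of all genes. The median log2 change of the members was 0.11, against -0.02 for all genes, and it was -0.0012 over the 23 that overlap no other gene.

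The 7 higher members were Mrps33, Mrpl34, Mrpl58, Mrpl18, Mrps35, Mrpl12 and Mrpl19. Mrps33, a small-subunit protein, was at 11.6 CPM in shSCR and 26.5 in shYY1, a ratio of 2.29 (1.27 to 4.32) on 17 and 39 reads. Mrpl34 was at 25.8 and 56.4 CPM, a ratio of 2.18 (1.47 to 3.29). Mrpl58, a peptidyl-tRNA hydrolase that frees stalled mitoribosomes and sits in the large subunit, was at 23.1 and 46.9 CPM, a ratio of 2.03 (1.33 to 3.15). Mrpl18, a protein of the central protuberance, was at 16.3 and 28.5 CPM, with an interval that came close to 1 (ratio 1.75, 1.03 to 3.02). Mrps35 had a ratio of 1.65 (1.17 to 2.35), Mrpl12, a stalk protein, of 1.65 (1.02 to 2.72), and Mrpl19 of 1.52 (1.09 to 2.15).

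The 7 lower members were Mrpl35, Mrps16, Mrpl42, Mrpl44, Mrpl27, Mrpl43 and Mrpl28, 6 of them in the large subunit. Mrpl35, which carries YY1 letters at its start codon, was at 27.2 CPM in shSCR and 9.51 in shYY1, a ratio of 0.35 (0.18 to 0.66) on 40 and 14 reads. It stood at 17.2 CPM in WT and 16.3 in XiΔXist, between the hairpin pools. That order, too, depends on the scaling by autosomal reads, as given above for the small-subunit sum. Mrps16 was at 40.8 and 19.0 CPM, a ratio of 0.47 (0.29 to 0.74). Mrpl42, which also carries the letters, was at 32.0 and 17.7 CPM, a ratio of 0.55 (0.33 to 0.91). Mrpl44, which has a ribonuclease III fold, had a ratio of 0.57 (0.35 to 0.93), Mrpl27 of 0.59 (0.39 to 0.86), Mrpl43 of 0.60 (0.40 to 0.87) and Mrpl28 of 0.64 (0.40 to 0.99). Mrpl19, Mrpl43 and Mrpl28 are named to complete the counts and lie outside the rule for named genes. Mrpl27 has near-identical copies in the genome, so reads that fit more than 1 copy may have been lost to the minimum of mapping quality. Of the 14 genes, 7 (Mrpl58, Mrpl18, Mrpl12, Mrpl19, Mrpl44, Mrpl27 and Mrpl43) overlap another annotated gene, whose reads cannot be told from theirs where the strand was not used.

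**Figure D2:**
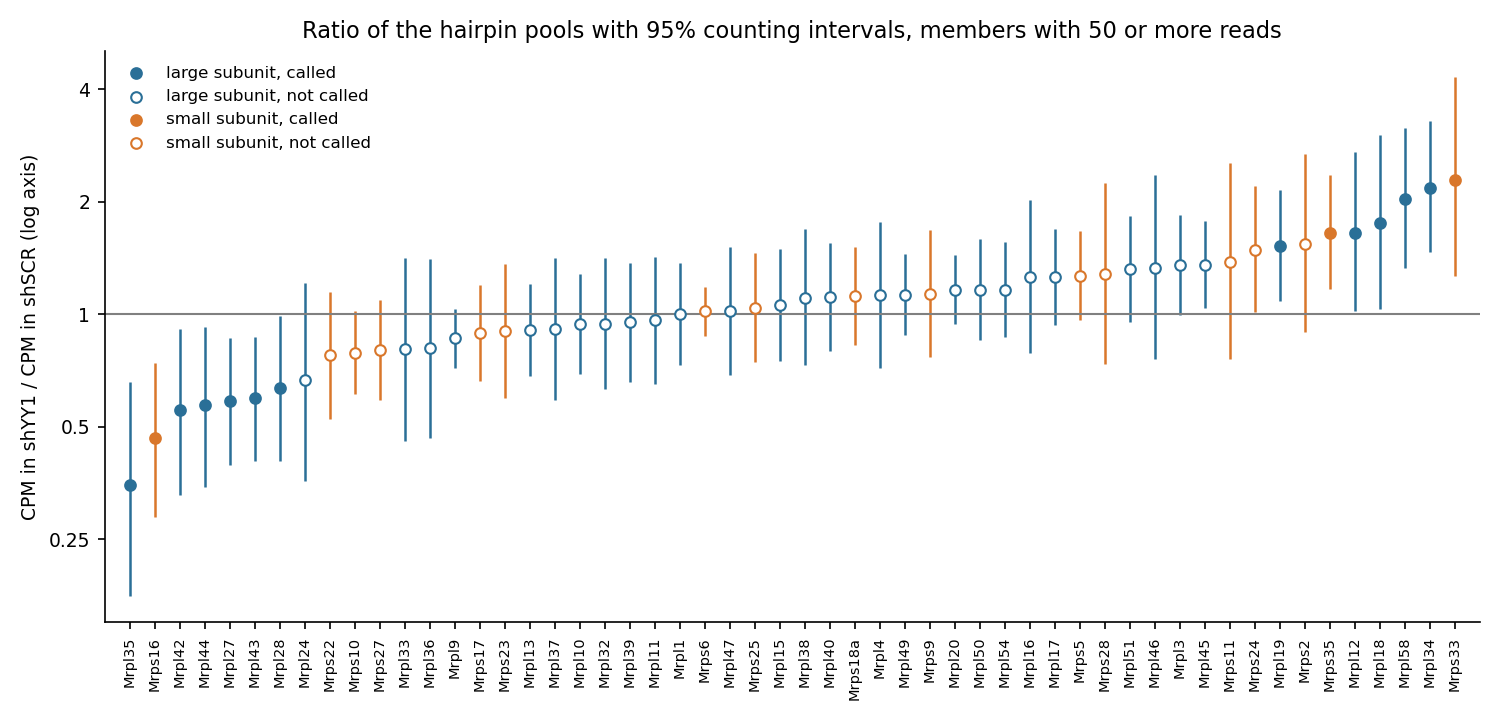
Ratio of CPM in shYY1 to CPM in shSCR, on a log axis, for the 54 members with 50 or more reads, ordered by the ratio. Points are ratios, lines their 95% counting intervals, colours the subunit, and filled points the 14 calls. The ratios run from 0.35 for Mrpl35, with Mrps16 next at 0.47, to 2.29 for Mrps33.

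Of the members whose promoter window carried YY1 letters, 10 were tested, and 0 were higher, 2 lower and 8 not called, with a median log2 change of -0.10. Of 36 tested members whose window lacked the letters, 5 were higher and 5 lower, with a median of 0.04. The letter-carrying genes thus did not move together: beside Mrpl35 and Mrpl42, Mrpl49 stood at 84.3 CPM in shSCR and 95.1 in shYY1 (ratio 1.13, 0.88 to 1.45), and Mrps18a at 58.5 and 65.2 (1.12, 0.83 to 1.51). Mrps24, with a ratio of 1.49 (1.01 to 2.20), fell short of 1.5-fold, and Mrps27, which binds mitochondrial rRNA, had a ratio of 0.80 (0.59 to 1.09).

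With subunits set by symbol, 5 large-subunit genes were higher and 6 lower of 37 (median 0.08). Of 17 small-subunit genes 2 were higher and 1 lower (median 0.15). With subunits set by structure, which places Mrps18a in the large one, the medians were nearly the same, 0.111 (large) and 0.116 (small). Oxidative phosphorylation subunits had 7 higher and 4 lower of 50 with a median of 0.18, and cytosolic ribosomal protein genes 2 higher and 4 lower of 60 with a median of -0.03. Among 47 tested partner genes 2 were higher and 4 lower. Besides Yy1 itself, Mrrf, the mitochondrial ribosome recycling factor, was at 22.4 CPM in shSCR and 11.5 in shYY1, and Myc, a regulator of ribosome genes, at 90.4 and 50.3. Ngrn, needed for mitochondrial rRNA, was at 36.7 and 22.4 CPM. Aars2, the mitochondrial alanyl-tRNA synthetase, was higher, at 19.0 and 31.9 CPM, and so was Esrra, a nuclear receptor of mitochondrial genes, at 20.4 and 34.0 CPM. The mitochondrial rRNAs mt-Rnr1 and mt-Rnr2 were 1.11-fold and 1.12-fold higher in shYY1.

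The control hairpin pool differed widely from the untransduced XiΔXist pool. Of 64 members tested in shSCR against XiΔXist, 35 were higher and 13 lower, near the background of 52.9% higher and 25% lower among 8645 protein-coding genes. The median log2 change was 0.81 for the members and 0.79 for all genes. These directions depend on the scaling: by all allelic reads 30 members were higher and 18 lower and the median was 0.52, but with TMM factors 14 were higher and 35 lower and the median was -0.70, and with median-of-ratios factors 13 and 36 with a median of -0.77. The changes below are therefore best read against the all-gene median of 0.79 and not against 0. The pools also differed in depth, as given above, and mt-Rnr1 rose from 10670 to 291338 CPM, 27.3-fold, while mt-Rnr2 rose 1.43-fold. The part of these differences between libraries in the members' changes was not tested.

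Among the members tested, the largest rise on log2 of CPM plus 1 was that of Mrpl54, a large-subunit protein, from 0.703 CPM in XiΔXist (0.587 in WT) to 61.9 in shSCR (72.0 in shYY1), a ratio of 88.0 (50.7 to 164). Mrps18a, which despite its name sits in the large subunit, rose from 1.59 to 58.5 CPM, a ratio of 36.7 (24.4 to 56.3), and Mrpl4 from 0.890 to 27.2, a ratio of 30.5 (17.3 to 55.8). Mrpl28 rose from 1.69 to 37.4 CPM and Mrpl58 from 1.17 to 23.1. In XiΔXist these 5 rested on few reads: 15 (Mrpl54), 34 (Mrps18a), 19 (Mrpl4), 36 (Mrpl28) and 25 (Mrpl58). Each passed the minimum of 50 reads over both pools only through its shSCR reads. A gene this low in XiΔXist could thus be tested only if it was higher in shSCR. Against the median log2 change of genes of like GC content, 3 of these 5 were no longer called as higher: the difference was 0.24 for Mrpl54, 0.30 for Mrpl4 and -0.54 for Mrpl28. Mrps18a and Mrpl58 stayed 1.55 and 2.19 above that median. In each of these 5 genes WT lay with XiΔXist, and shYY1 with shSCR: WT values ran from 0.587 to 2.24 CPM and shYY1 values from 23.8 to 72.0.

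Among the members tested, the largest fall was that of Mrps18c, a small-subunit protein, from 52.1 CPM (62.8 in WT) to 2.04 in shSCR (5.43 in shYY1), a ratio of 0.039 (0.0081 to 0.11) on 3 reads in shSCR. Mrps18c has a near-identical copy, so this value is uncertain. Mrps30, a large-subunit protein by structure, fell from 67.9 to 8.16 CPM, a ratio of 0.12 (0.062 to 0.21), Mrpl32 from 245.0 to 36.7, a ratio of 0.15 (0.11 to 0.20), Mrps33 from 52.3 to 11.6 and Mrpl40 from 177.6 to 48.3. Mrpl32, whose cleavage by a mitochondrial protease precedes large-subunit assembly, stood at 201.8 CPM in WT and 34.6 in shYY1, so that here too WT lay with XiΔXist.

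The change went with GC content and, inversely, with the reads in XiΔXist. Across the 64 members, Pearson's r between the log2 change and the GC content of the longest transcript was 0.55 and Spearman's rho 0.54, and across all 8645 genes 0.71 and 0.71, given as a description over genes that share the same 2 libraries. The 22 members of lowest GC (38.6 to 45.3%) had a median log2 change of -0.68, the same as all genes of that GC range (-0.68). The 21 members of middle GC (45.5 to 51.5%) had 1.26, against 0.88 for all genes of that range. The 21 of highest GC (51.7 to 60.4%) had 1.33, well under the 3.18 of all genes of that range. From low to high GC, the groups also started from different levels, with median CPM in XiΔXist of 49.5, 21.2 and 8.29. Spearman's rho between the log2 change and the reads in XiΔXist was -0.76 over the members and -0.73 over all genes. Those reads also enter the change itself. How far GC content and starting level each account for the change was not tested. Large and small subunits did not part, with 23 higher and 9 lower of 41 (median 0.83) and 12 higher and 4 lower of 23 (median 0.80). In the comparisons within each pair of like libraries r with GC content was 0.02 (XiΔXist against WT) and 0.11 (shYY1 against shSCR) over the members. Over all genes it was -0.01 and -0.13.

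**Figure D3:**
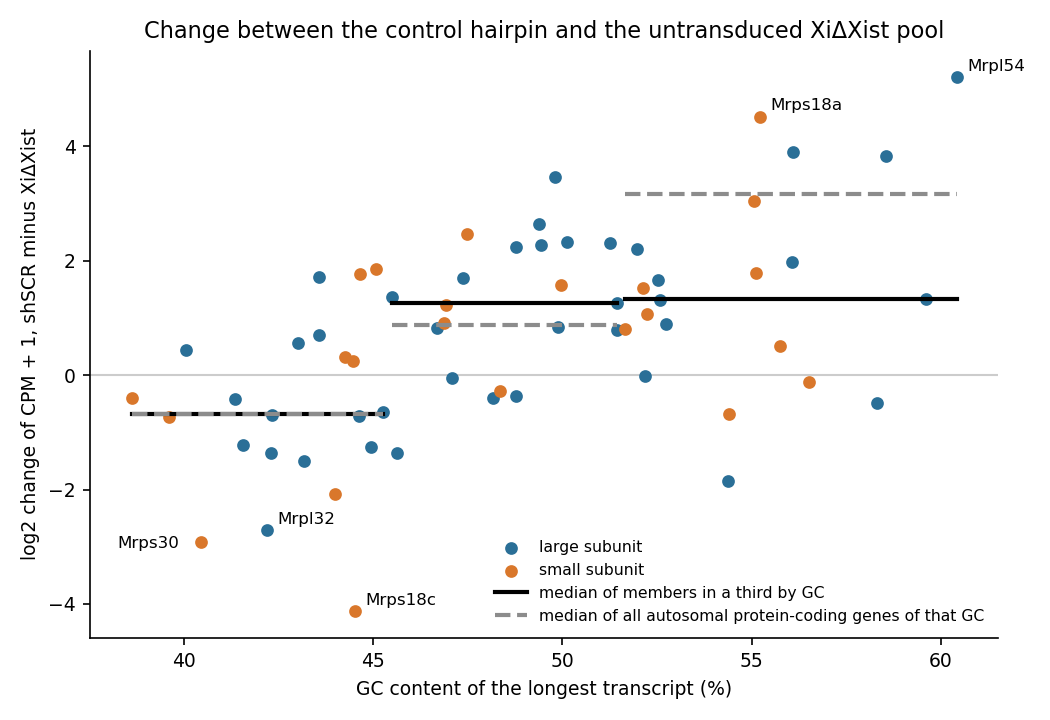
Log2 change of CPM plus 1 from XiΔXist to shSCR against the GC content of the longest transcript, for the 64 members with 50 or more reads, coloured by subunit. Black lines are medians of the members in 3 groups by GC and dashed grey lines medians of all autosomal protein-coding genes in the same GC ranges, which part in the group of highest GC (1.33 against 3.18).

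The 129 share, the percent of a gene's allelic reads that came from the 129 allele, divided the members into groups. Of the 60 members with 10 or more reads in all 4 pools, 24 (40%) were over 90% in every pool, and 29 stayed between 10 and 90%. Among 7871 protein-coding genes with such reads 39.6% were over 90% in every pool, so the members' share was that of genes in general. The 24 genes, 17 of the large and 7 of the small subunit, had 11 CAST reads of 18869 in WT, 13 of 22004 in XiΔXist, 5 of 1787 in shSCR and 2 of 1891 in shYY1. They included Mrpl11 (chromosome 19), Mrpl18 (17), Mrpl49 (19), Mrps5 (2), Mrpl32 (13), Mrps6 (16) and Mrpl9 (3). Mrps34, a small-subunit protein on chromosome 17, had no read in WT and XiΔXist and 9 and 15 reads in shSCR and shYY1, all from 129.

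The share followed the neighbourhood. For each member, the median share of the other genes within 2 Mb was taken where 5 or more had 10 or more reads. Of the members over 90%, the neighbour median was also over 90% for 27 of 28 in WT, 26 of 26 in XiΔXist, 26 of 26 in shSCR and 28 of 28 in shYY1. Pearson's r between a member's share and its neighbours' median was 0.78 over 66 members (WT), 0.80 over 66 (XiΔXist), 0.93 over 64 (shSCR) and 0.92 over 64 (shYY1), given as a description, since members that lie close together share neighbours.

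Some members stood apart: the share differed from the neighbour median by over 20 points for 9 of 66 members in WT, 9 of 66 in XiΔXist, 7 of 64 in shSCR and 5 of 64 in shYY1. Mrps12, the decoding-centre protein whose bacterial counterpart is mutated in streptomycin resistance, lies on chromosome 7 where its 61 to 66 neighbours had a median of 100% in all pools, yet its own share was 34.1% in WT (29.3 to 39.3) and 28.6% in XiΔXist (24.6 to 33.0). In the hairpin pools it was 100%, on 28 and 20 reads, which allow a CAST share of up to 10.7% and 15.0%. Mrps2, a small-subunit protein on chromosome 2, had 43.9%, 37.9%, 75% and 51.4% in WT, XiΔXist, shSCR and shYY1. The median of its neighbours was 98.9% or more, but only 59.0%, 61.5%, 63.4% and 60.5% of them were over 90%, so its neighbourhood was mixed. Mrps33 on chromosome 6 was read mainly from CAST in every pool, with 9.68%, 11.7%, 23.5% and 17.9%, and neighbour medians of 49.2 to 56.6%. Mrpl38 on chromosome 11 moved from 90.7% in WT and 87.4% in XiΔXist to 60.9% in shSCR and 37.3% in shYY1. Its neighbour median stayed at 50.4 to 54.5%. Mrps22, needed for small-subunit assembly, had 37.6%, 52.1%, 55.6% and 57.1%, with neighbour medians of 81.0 to 100%. Here too the neighbours were mixed, with 47.1%, 50%, 57.1% and 50% of them over 90%. The share of all members summed was 72.0%, 70.6%, 72.8% and 73.9%, so the summed value hid these groups.

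**Figure D4:**
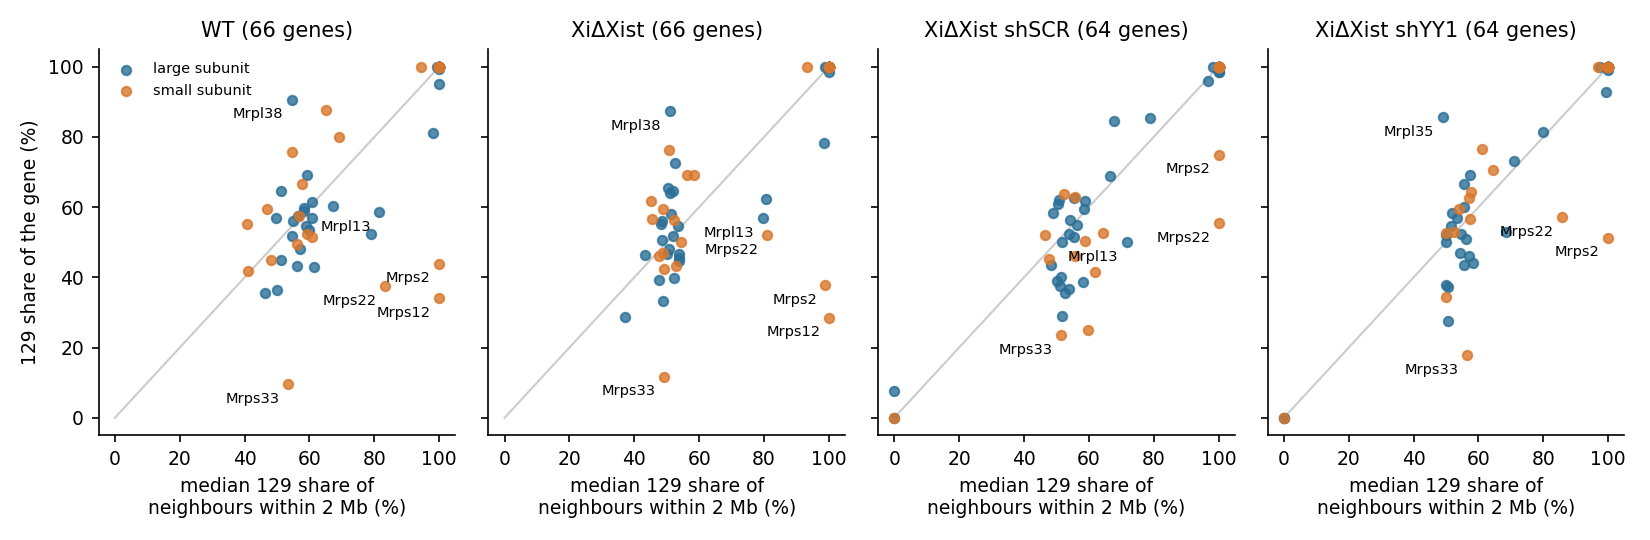
129 share of each member against the median 129 share of its neighbours within 2 Mb, in the 4 pools, coloured by subunit, with the line of equality in grey. Most members lie near the line or in the corner at 100%, and 9 of 66 lie more than 20 points from it in WT: Mrps12, Mrps2, Mrps22, Mrps33, Mrpl38, Mrpl13, Mrpl3, Mrps18c and Mrps24.

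Between XiΔXist and WT the share of 1 member rose and that of 7 fell by 10 points or more with an interval that left out 0, of 65 members with 10 or more reads in both pools. The background was 5.38% risen and 9.54% fallen among 9166 genes, and the members' 10.8% fallen was near it. All 4 members on chromosome 5 were among the 7. Mrpl1 fell from 53.6% to 39.3% (a difference of -14.3 points, -16.8 to -11.7), Mrpl33 from 60.4% to 46.7%, Mrps18c from 87.7% to 76.2% and Mrps17 from 80.0% to 69.1%. The median share of all chromosome 5 genes fell from 67.3% to 53.4%. Against the median of each chromosome, 0 members rose and 1 fell. The other fallen members were Mrps24 (75.7% to 59.4%) and Mrpl27 (59.8% to 48.1%) on chromosome 11 and Mrpl57 (56.8% to 46.3%) on chromosome 14, whose chromosome medians fell from 57.4% to 51.2% and from 62.9% to 51.7%. Mrps22 on chromosome 9 rose from 37.6% to 52.1%, where the chromosome median rose from 57.7% to 69.2%. Mrps17 and Mrpl57 lie outside the rule for named genes and complete the count.

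Between shYY1 and shSCR the share of 4 of 62 members rose and that of 1 fell, against 5.17% and 4.59% of 8774 genes. Mrpl35 had 15 reads from 129 and 25 from CAST in shSCR, and 12 and 2 in shYY1, so its share went from 37.5% to 85.7%, a difference of 48.2 points (18.3 to 65.0). The lower level of Mrpl35 in shYY1 thus lay mainly in its CAST reads. Mrps15 went from 25% to 62.5% on 16 reads in each pool, Mrps30 from 41.7% to 76.7% on 12 and 30 reads, and Mrps27 from 52.6% to 70.5% on 97 and 78 reads. Mrpl38 fell from 60.9% to 37.3%, a difference of -23.6 points (-41.1 to -3.72). Of the 5, only Mrps27 had 50 or more reads in both pools. The neighbour medians of Mrpl35 were 51.2% and 49.0%, and those of Mrps27 64.5% and 64.6%.

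Between shSCR and XiΔXist the share of 8 of 62 members rose and that of 8 fell, 12.9% each, beside 12.9% and 11.5% of 8247 genes. On chromosome 14, Mrpl57 fell from 46.3% to 0 of 18 reads and Mrps16 from 46.0% to 0 of 60 reads from 129. Mrpl52, with 33.3% and 1 of 13 reads, was not called, as its interval (-39.5 to 2.00 points) took in 0. A count of 0 allows a 129 share of up to 16.7% for Mrpl57 and 5% for Mrps16. In shYY1 all 3 genes had no 129 read, and the median share of chromosome 14 genes was 0 in both hairpin pools, after 62.9% in WT and 51.7% in XiΔXist. The lower level of Mrps16 in shYY1, described above, was therefore a change of CAST reads, from 60 to 28. Mrpl3 on chromosome 9 rose from 62.3% to 85.5%, with the chromosome median going from 69.2% to 78.9%. Mrpl41 on chromosome 2 rose from 28.7% to 84.6% on 26 reads in shSCR, with neighbour medians of 37.2% and 67.6%. Mrps12 and Mrps2, given above, had among the largest rises (71.4 and 37.1 points), and Mrps25 rose from 43.3% to 63.0%. Mrpl10, the stalk protein that carries Mrpl12, fell from 65.6% to 36.7%, and Mrpl38, Mrps17 and Mrpl35 fell by 26.5, 18.7 and 17.7 points.

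**Figure D5:**
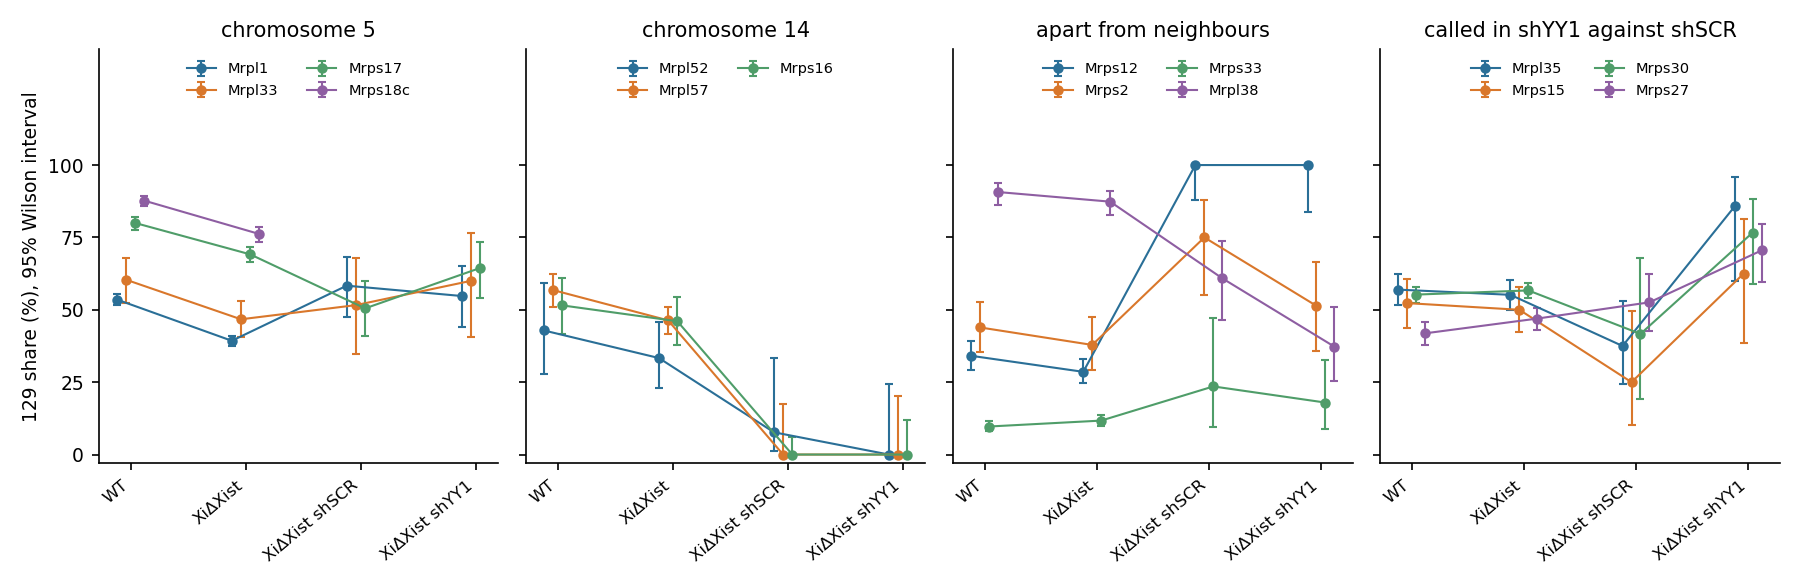
129 share by pool, with 95% Wilson intervals, for members with 10 or more reads in the pool: the 4 on chromosome 5, the 3 on chromosome 14, 4 that stood apart from their neighbours, and the 4 whose share rose in shYY1 against shSCR. Lines join the values of a gene and carry no order of time. The chromosome 14 genes drop to 0 or near it in both hairpin pools, and Mrps12 goes from 28.6% to 100%.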

How the data were processed

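The authors pooled the 2 samples of each group, aligned the reads with TopHat to an N-masked GRCm38 (mm10) genome, dropped alignments of mapping quality under 30, assigned reads to 129S1/SvImJ or CAST/EiJ with SNPsplit and counted exons with featureCounts (1.6.3). The 8 deposited tables hold these raw counts per Ensembl gene, and the annotation release and strand setting are not given in the sources used here. Of 46078 gene IDs, 45229 were matched to GENCODE M21. Libraries were made from total RNA (KAPA RNA HyperPrep). Reads are assigned at the masked strain differences, so exons without one give no allelic reads, and any mapping bias toward 1 allele would shift a share.

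Counts of both alleles were scaled to CPM of autosomal reads and changes taken on log2(CPM + 1). Levels have exact Poisson intervals, ratios exact conditional ones (Clopper-Pearson), shares Wilson and share differences Newcombe intervals, all at 95%. A level was called at 1.5-fold with 50 or more reads, a share at 10 points with 10 or more reads in both pools. With 1 pool per group no replicate test was possible. The design of intervals and calls was tested on simulated data that held counting error only. That test does not cover spread between replicates, clones or libraries. Near-identical copies were found with blastn (2.17.0) and TMM factors with edgeR (4.0.16) in R (4.3.3); the rest used Python (3.11.15). The members and lists were chosen with earlier results of these data known. Named were Xist, Yy1, members with known roles, the 5 largest called rises and falls of level and of share in each comparison, members read almost only from 1 allele, and the 3 partner genes with the largest calls. The run of bases around the YY1 letters of 1 member is not reported here.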

Additional observations from a re-analysis of the deposited data

How the results depend on the processing

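No paired analysis was possible because the count tables hold the 2 replicates of each group already pooled. With 1 pool per group the limits are counting error, low depth in the hairpin pools, and library differences that go with the hairpin treatment. The cause of the changes below was not tested, other than that a stricter filter or a leaner list leaves fewer genes. In XiΔXist against WT (1 member higher, 2 lower, median log2 change -0.13), TMM factors left 1 lower and a small-subunit median of 0.055, and median-of-ratios factors gave 3 higher, 1 lower, a median of -0.0040 and a small-subunit median of 0.093. There, 200 or more reads left 0 higher, a pseudocount of 5 left 0 higher and 1 lower, a pseudocount of 0.1 gave 2 higher, and 2-fold left 0 and 0. Subtracting the chromosome median gave 3 higher and 1 lower, the GC bin median 2 higher, 1 lower and a median of -0.030, and members that overlap no gene had a median of 0.023. In shYY1 against shSCR (7 higher, 7 lower, median 0.11), scaling by all allelic reads left 4 higher, 2-fold 2 and 2, 200 or more reads 0 and 0 of 8, 100 or more reads 4 and 2, and members that overlap no gene 3 and 4 of 23, with a median of -0.0012. In shSCR against XiΔXist (35 higher, 13 lower, median 0.81, large 0.83, small 0.80), TMM factors gave 14 and 35 (median -0.70, large -0.68, small -0.74) and median-of-ratios factors 13 and 36 (-0.77, -0.75, -0.81). Subtracting the chromosome median gave 17 and 25 (-0.29, -0.22, -0.39) and the GC bin median 18 and 28 (-0.46), with Mrpl28 at -0.54. There, 200 or more reads left 17 higher and a median of -0.0099, all allelic reads a median of 0.52, a pseudocount of 5 a median of 0.70, and members that overlap no gene 15 and 6 with a median of 0.52. For the 129 share in XiΔXist against WT (1 rose, 7 fell), 3 points without an interval gave 6 and 19, 20 points 0 and 0, CAST reads scaled 2 and 3, the chromosome median 0 and 1, and members that overlap no gene 0 and 3. In shYY1 against shSCR (4 rose, 1 fell), 3 points gave 16 and 13, 20 or more reads 1 rise, 50 or more reads 1 and 0, CAST reads scaled 3 falls, and members that overlap no gene 2 rises. In shSCR against XiΔXist (8 and 8), 3 points gave 18 and 19, 20 points 4 and 4, 50 or more reads 4 and 5, CAST reads scaled 14 falls, and members that overlap no gene 4 and 5. The GC bins and the minimum of 100 reads were chosen after seeing the data. The calls of level named in the text were recalculated without the 2-fold setting and the setting without an interval. Settings in which a gene was no longer tested were not counted for it, so the tallies flatter the calls on few reads. In XiΔXist against WT 29 recalculations kept and 6 lost the call (5 for Mrpl11, 1 for Mrpl30). In shYY1 against shSCR 143 kept and 9 lost it (Mrpl12, Mrpl18, Mrpl19 and Mrpl28). At 2-fold, however, only 2 of its 7 higher and 2 of its 7 lower members stayed called. In shSCR against XiΔXist 106 kept it, 2 lost it (Mrpl54 and Mrpl4, against the GC bin median) and 1 reversed (Mrpl28).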
